A study of Mus musculus with 283 samples.

Results

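Esr1, Pgr, Gata3, Foxa1, Elf5, Erbb2, Prlr and Trp63 are mouse genes for the hormone and growth factor receptors and the lineage transcription factors of the mammary epithelium. They were taken by symbol from a table of tumours and normal mammary glands, and all 8 were found once among its 45657 gene entries. Every value below is a deposited signal on a log2 scale after adding 1, so 1 unit is a doubling and an entry listed at 0 stays at 0. The signal is not divided by gene length, so levels are compared between samples and never between genes.

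The ducts and alveoli of the gland have an inner luminal layer and an outer basal layer. Hormone-sensing luminal cells carry the oestrogen receptor (Esr1) and the progesterone receptor (Pgr), and the transcription factors Foxa1 and Gata3 open chromatin for the oestrogen receptor and keep luminal identity. Alveolar luminal cells answer prolactin through its receptor Prlr, the kinase Jak2 and Stat5, and the ETS factor Elf5 drives their milk-producing fate. Trp63 encodes p63, a p53 relative that marks and maintains the basal layer, and Erbb2 encodes the receptor tyrosine kinase HER2. Human triple-negative breast cancer is defined by the lack of oestrogen receptor, progesterone receptor and raised HER2, which makes these genes the ones that name the disease.

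The study compared mouse models of mammary tumours. Some were given antibodies to PD1 and CTLA4, both inhibitory receptors of T cells, or no treatment, and the others were untreated only. Tumours were collected 3 or 7 days after the start or when they reached end stage, and the labels class each model as sensitive (107 libraries), resistant (86) or of unknown response (62). In all there were 264 RNA-seq libraries of tumours or glands, 6 of cultured lines and 13 exome samples, which were not analysed here. Per the labels, tumour cells were injected into the mammary site of syngeneic mice, which entered an arm at a diameter of 5 mm, and the doses were 125 ug for the CTLA4 antibody and 10 mg per kg for the PD1 antibody. All samples carry the same wording on this, so whether it holds for the primary tumours is not known.

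Treated and untreated tumours were available for T11-UV, T11-Apobec, KPB25L and KPB25L-UV, all classed as sensitive, and for T11, p53-2225L and p53-2336R, classed as resistant. T11 and KPB25L are parental lines, and UV and Apobec mark derivatives of them. The exome labels give T11 and the p53-null tumours as BALB/c and KPB25L as FVB. KPB25L-Apobec, p53-2153F, p53-2224L, p53-9263-3 and KPB-1A added untreated tumours at 3 days. KPB-Primary, KPB-1A and KPB-1B carry K14-Cre with floxed Brca1 and p53, so Brca1 and p53 are lost in cells that have used the keratin 14 promoter, which is active in basal epithelium. C3-TAG, PyMT and ILC-Pik3Ca/Cdh1Null tumours were untreated and at end stage, and the last of these lack Cdh1, the epithelial cadherin. The reference tissue was normal mammary gland of BALB/c mice (n = 5) and FVB mice (n = 4), of which 4 libraries were labelled as pooled. The age and parity of the mice are not stated. The labels also give 9 p53-null or T12 models as 1 end-stage library each.

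Libraries held an estimated 10.4 to 149.6 M reads (mega, SI prefix) with a median of 51.4 M, and 1 read was worth a median of 1.01 on the log2 scale, so values near 1 rest on single reads. A set of 50 transcripts that separates the parental lines, the members left out, averaged 8.57 to 9.30 in T11 libraries and 1.75 to 4.23 in KPB25L libraries. In 6 of the 27 libraries labelled KPB25L-UV it averaged 6.22 to 8.35, against 1.62 to 3.28 in the other 21. These 6 were untreated replicate 3 at 3 days, treated replicates 1 and 5 and untreated replicates 3 and 4 at 7 days, and untreated replicate 2 at end stage. A like set of 50 transcripts high in KPB25L averaged 7.9 to 10.4 in KPB25L libraries and 1.2 to 2.4 in T11 libraries. In treated KPB25L replicates 2, 4 and 5 at 3 days it averaged 8.4, 7.9 and 8.0, and in all other KPB25L libraries at least 9.8. In the other 21 KPB25L-UV libraries it averaged 5.2 to 10.7, with 6.2 and 5.2 in treated replicates 2 and 4 at 7 days. Of the 6 libraries, it averaged 9.4 in the 3-day replicate and 8.7 in treated replicate 1 at 7 days, so these held both sets. In the rest of the 6 it averaged 2.2 to 3.0, as low as in T11 derivatives. Whether libraries were mixed or mislabelled was not tested. Where leaving out these 6 changed a call in a comparison that uses them, both results are given. Leaving them out also gave 8 further calls in comparisons without KPB25L-UV, which share 1 estimate of the spread with it, and these are given beside the gene. BALB/c gland replicate 1 also stood apart from the other glands, with an adipocyte sum of 17.58, an epithelial sum of 14.32 and a T cell sum of 16.57, each the log2 of the added signal of the markers of that cell type.

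In GRCm38 (mm10), with the GENCODE annotation, Esr1 lies on chromosome 10 from 4611593 to 5005614, Pgr on chromosome 9 from 8899833 to 8968611, Elf5 on chromosome 2 from 103411688 to 103450989, Erbb2 on chromosome 11 from 98412470 to 98437716, Prlr on chromosome 15 from 10177238 to 10349180 and Trp63 on chromosome 16 from 25683763 to 25892102, all on the plus strand. Gata3 lies on chromosome 2 from 9857078 to 9890034 and Foxa1 on chromosome 12 from 57540628 to 57546916, both on the minus strand. Gata3 shares 77 bases with 9230102O04Rik on the same strand, whose level reached 7.68 with a median of 1.16, so Gata3 values may hold reads of that transcript. Prlr shares 203 bases with Gm21973, whose level reached 1.77.

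Elf5 and Prlr were called together at 3 days in KPB25L under therapy and in KPB25L-UV and KPB25L-Apobec against KPB25L, so the 250 bases before their first RefSeq transcription starts are shown (GRCm38.p6). Capitals mark matches on either strand to any of 5 motifs, namely AGATAA for the Gata family, TGTTTA for forkhead factors, CCGGAA for Ets factors, TTCNNNGAA for Stat5 and GGTCA for an oestrogen receptor half-site.
Elf5 promoter, chr2:103411848-103412097, plus strand: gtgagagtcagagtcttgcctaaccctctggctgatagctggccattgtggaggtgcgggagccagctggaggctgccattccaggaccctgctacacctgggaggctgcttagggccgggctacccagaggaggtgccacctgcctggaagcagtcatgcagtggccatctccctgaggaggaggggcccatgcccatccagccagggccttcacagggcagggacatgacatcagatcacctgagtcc
Prlr promoter, chr15:10176988-10177237, plus strand: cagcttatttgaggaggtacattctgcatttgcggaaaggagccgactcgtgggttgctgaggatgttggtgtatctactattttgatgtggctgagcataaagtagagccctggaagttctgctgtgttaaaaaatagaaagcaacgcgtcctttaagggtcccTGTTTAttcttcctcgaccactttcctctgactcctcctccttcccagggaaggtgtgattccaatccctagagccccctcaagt
The Elf5 window held none of the 5 motifs, nor did a further Elf5 start, and the Prlr window held 1 forkhead match. Of 3 Prlr windows another held 2 forkhead matches and 1 Stat5 match. Over 32851 RefSeq windows of the same length, 9.99% held the GATA motif, 12% the forkhead motif, 12% the ETS motif, 7.02% the Stat5 motif and 35.2% the half-site. Among the other members, the Foxa1 window held 1 forkhead match and 1 half-site, that of Gata3 1 ETS match and 1 half-site, that of Pgr 1 forkhead match and that of Erbb2 none. These are matches of letters, not binding sites.

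Untreated end-stage tumours of 13 models were set against the glands to ask how far each model keeps the receptors and lineage factors of normal epithelium. Esr1 was lower in all 13 models, Prlr in 12, Pgr in 11, Gata3 in 10 and Foxa1 in 8, and none of these was called higher in any. Erbb2 ran the other way, higher in 9 models and lower in T11 and its derivatives only. Elf5 and Trp63 split the models, with Elf5 higher in 3 and lower in 6 and Trp63 higher in 5 and lower in 5. In limma, with Benjamini-Hochberg adjustment over 21366 genes and a call at 0.05, 85 of the 104 gene-by-model pairs were called. Over all genes 59.7% of pairs were called in either direction, 33.4% lower and 26.3% higher, against 68 lower and 17 higher among the members' 104. In bulk tissue, fewer cells of a type and less RNA per cell cannot be told apart, and glands and tumours differed in the cells they held, as given after the genes.

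**Figure D1:**
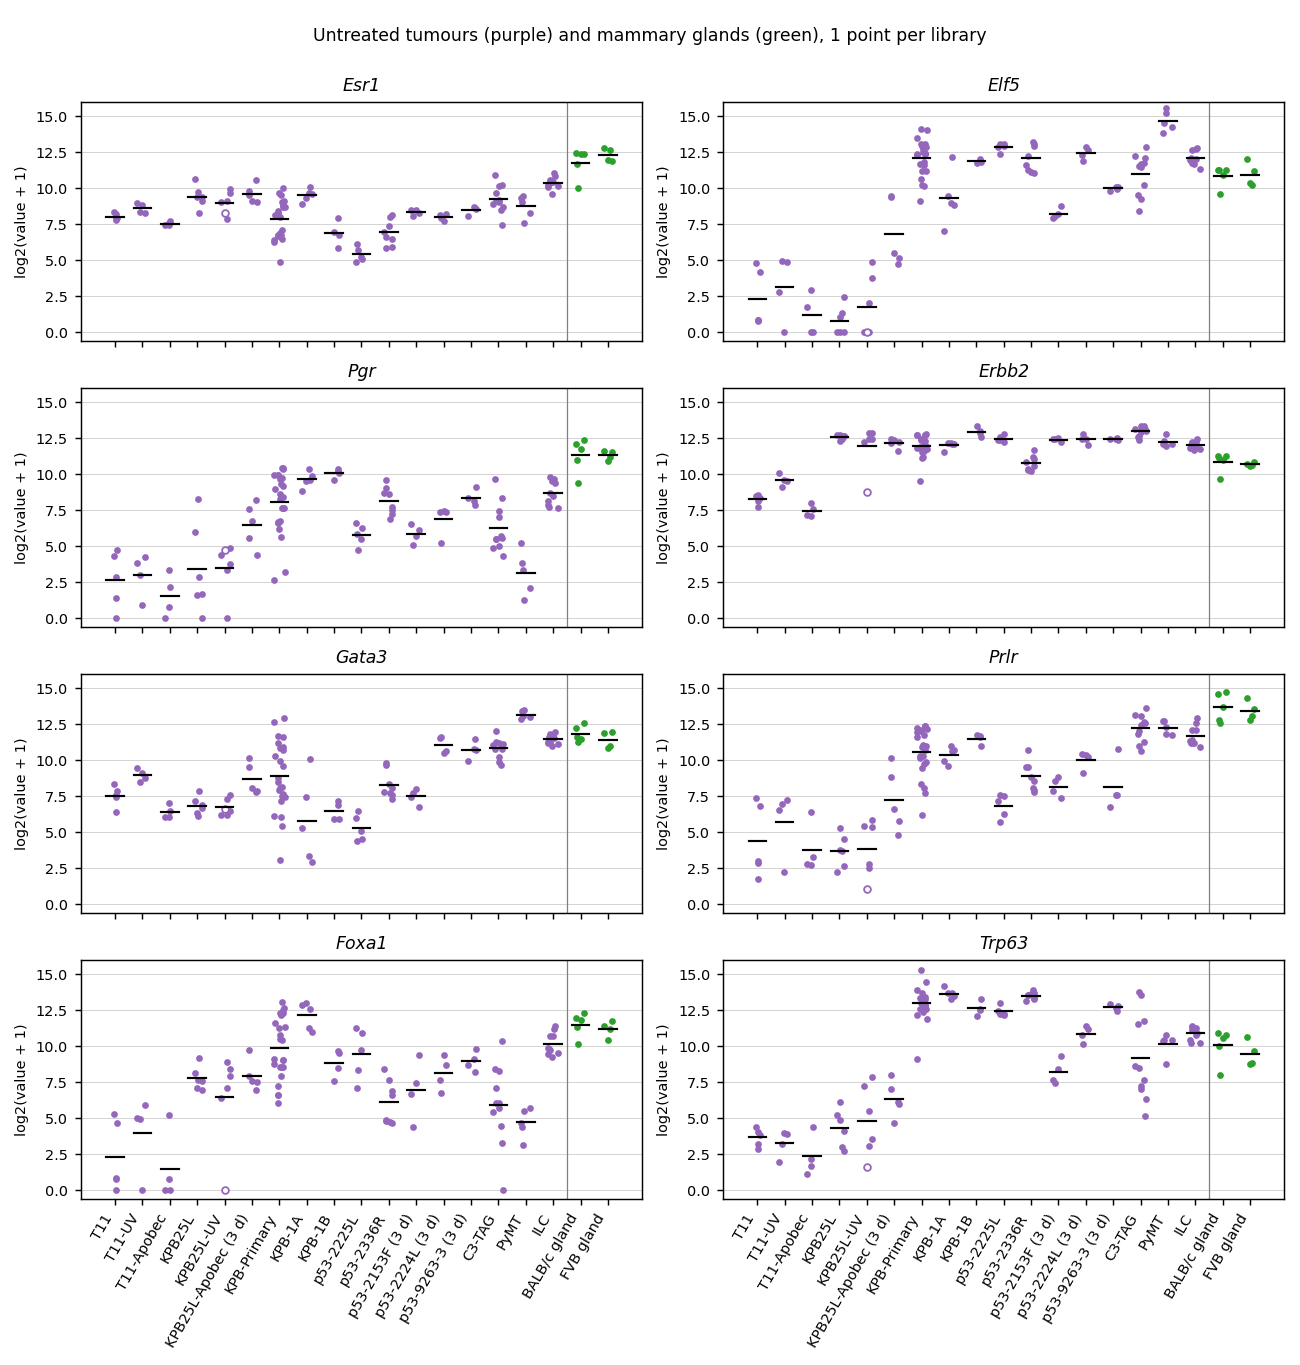
Level of each gene, as log2(value + 1), in untreated libraries of 17 tumour models (purple) and of BALB/c and FVB mammary glands (green). Lines mark the means. Each model is shown at 1 time, at end stage for the 13 models set against glands and at 3 days for the rest. Open points are the KPB25L-UV libraries that hold T11 transcripts. Esr1 and Prlr sat highest in the glands, Elf5 and Trp63 were lowest in T11, KPB25L and their derivatives, and Erbb2 was lowest in T11 and its derivatives.

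Esr1, the oestrogen receptor gene, had 10.03, 12.36, 11.67, 12.42 and 12.38 in BALB/c glands and 12.66, 11.97, 11.92 and 12.76 in FVB glands. The tumours nearest to the glands were the lobular ILC-Pik3Ca/Cdh1Null tumours, with a lowest, median and highest of 9.60, 10.37 and 11.06, and limma gave -1.69 ± 0.41 (adjusted p = 0.00038) against glands. Those farthest were p53-2225L tumours, with 4.86, 5.10, 5.23, 6.11 and 5.70 and a difference of -6.65 ± 0.50 (adjusted p = 1.21e-21). No p53-2225L tumour reached any gland, while the highest ILC tumour lay above BALB/c gland replicate 1. The 3 T11 models had Esr1 at 7.46 to 8.96 over 13 tumours.

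Pgr, a target of the oestrogen receptor, was lower in 11 models and by more than Esr1 in most. T11 tumours had 1.38, 4.72, 0, 2.84 and 4.33, against 9.36 to 12.38 in the 9 glands, a difference of -8.66 ± 0.92 (adjusted p = 6.17e-14). PyMT tumours had 2.07, 3.81, 5.22, 1.25 and 3.37 and differed by -8.17 ± 0.92 (adjusted p = 9.88e-13). None of these tumours reached the lowest gland. The exceptions were the Brca1- and p53-deleted KPB-1A and KPB-1B tumours. KPB-1B had 10.20, 10.07, 10.38 and 9.63 and KPB-1A had 8.82, 9.61, 9.56, 10.33 and 9.85, with differences of -1.24 ± 0.99 (adjusted p = 0.275) and -1.68 ± 0.92 (adjusted p = 0.105), neither of them called. The KPB-1A and KPB-1B values overlapped the glands only at the lowest one, a BALB/c gland at 9.36. All lay below the FVB glands, at 10.89 to 11.63, and below the BALB/c median of 11.77. The Esr1 level of KPB-1B was 5.88, 6.76, 7.96 and 6.97, lower than in glands by limma at -5.16 ± 0.54 (adjusted p = 3.65e-14).

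Foxa1, the forkhead factor of hormone-sensing cells, was low in T11 tumours, with 0, 4.66, 0.83, 0.75 and 5.26, against 10.17 to 12.28 in glands (-9.06 ± 1.07, adjusted p = 4.59e-12). PyMT tumours had 5.70, 4.42, 4.70, 5.53 and 3.17 and fell below every gland (-6.65 ± 1.07, adjusted p = 1.14e-07). KPB-1A tumours had 12.88, 12.56, 13.01, 11.27 and 10.96, around and above the gland values, and limma gave 0.78 ± 1.07 (adjusted p = 0.542). There was also no call in KPB-1B, KPB-Primary, p53-2225L and ILC-Pik3Ca/Cdh1Null, which makes 5 models, though KPB-1B was called without the KPB25L-UV libraries that hold T11 transcripts (-2.53, adjusted p = 0.0351).

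Gata3, the GATA factor of luminal cells, was lower in 10 models. It was lowest in p53-2225L, with 5.97, 4.56, 5.06, 4.37 and 6.46, against 10.86 to 12.61 in glands (-6.34 ± 0.81, adjusted p = 5.62e-11). The highest values of any model were in PyMT tumours, with 13.03, 13.43, 12.86, 13.51 and 13.04, all above every gland, and the difference of 1.55 ± 0.81 (adjusted p = 0.103) was not called. PyMT tumours held high Gata3 beside low Foxa1 and Pgr. ILC-Pik3Ca/Cdh1Null and C3-TAG gave -0.17 ± 0.67 (adjusted p = 0.855) and -0.81 ± 0.65 (adjusted p = 0.265), also without a call.

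Prlr, the prolactin receptor, had 12.57, 13.72, 12.78, 14.63 and 14.71 in BALB/c glands and 13.04, 12.78, 13.59 and 14.31 in FVB glands. KPB25L tumours had 3.78, 3.67, 2.23, 5.27, 2.67 and 4.54, a difference of -9.86 ± 0.71 (adjusted p = 1.32e-22). PyMT tumours had 11.73, 12.71, 12.70, 11.82 and 12.30 and gave -1.30 ± 0.75 (adjusted p = 0.14), the only model without a call. In KPB25L every tumour lay below every gland by a wide gap, while in PyMT the ranges overlapped.

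Elf5, the ETS factor of alveolar cells, gave the widest range of the 8. It was listed at 0 in 3 of 6 KPB25L tumours, whose values were 0, 1.36, 0, 1.03, 0 and 2.45, against 9.59 to 12 in glands (-10.09 ± 0.66, adjusted p = 6.78e-25). PyMT tumours had 14.28, 14.52, 13.81, 15.56 and 15.25, all above every gland (3.79 ± 0.70, adjusted p = 2.64e-06). p53-2225L tumours had 12.84, 13.09, 12.90, 12.39 and 13.10 and were also above every gland (1.97 ± 0.70, adjusted p = 0.0114). KPB-Primary was higher by 1.19 ± 0.49 (adjusted p = 0.0273) and KPB-1A lower at -1.59 ± 0.70 (adjusted p = 0.0418), calls that each depended on single libraries. In p53-2225L Elf5 was high while Prlr was low, at 7.15, 7.51, 6.29, 5.72 and 7.58 (-6.71 ± 0.75, adjusted p = 3.61e-13).

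Erbb2, the HER2 gene, was 7.12, 7.15, 7.61 and 8.02 in T11-Apobec tumours and 8.59, 8.34, 8.14, 7.70 and 8.47 in T11 tumours, against 9.68 to 11.29 in glands. The differences were -3.31 ± 0.35 (adjusted p = 6.43e-14) and -2.54 ± 0.33 (adjusted p = 9.38e-11), and no tumour of these models reached a gland. T11-UV had 9.63, 9.53, 10.06 and 9.14 and was lower by limma at -1.20 ± 0.35 (adjusted p = 0.00244), a call lost on centring each library on its median. The highest were C3-TAG tumours, with a lowest, median and highest of 12.41, 13.10 and 13.36, and KPB-1B tumours, with 12.88, 12.58, 12.97 and 13.33, with differences of 2.20 ± 0.26 (adjusted p = 3.29e-12) and 2.16 ± 0.35 (adjusted p = 1.28e-07). All of these lay above every gland. The 9 models called higher differed by 1.15 to 2.20, and p53-2336R stood at the gland level (0.00 ± 0.28, adjusted p = 0.994). Of 7 tested genes next to Erbb2 on chromosome 11, 3 were higher and 3 lower in C3-TAG, where 37.3% and 32.2% of all genes were. The higher ones included Stard3 at 0.68 ± 0.13 and Ppp1r1b at 3.65 ± 0.57, and the 3 lower ones are not named here. In T11, 1 was higher and 5 were lower, where 20.8% and 37.2% of all genes were. The lower ones included the adaptor gene Grb7 at -7.83 ± 0.74 (adjusted p = 2.93e-16 by limma).

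Trp63, the p63 gene, was called higher than in glands in 5 models and lower in 5. KPB-1A tumours had 14.17, 13.69, 13.70, 13.25 and 13.49, against 8.02 to 10.89 in glands (3.89 ± 0.77, adjusted p = 7.37e-06), and all 5 lay above every gland. The 8 p53-2336R tumours had a lowest, median and highest of 13.14, 13.55 and 13.94 (3.74 ± 0.67, adjusted p = 8.12e-07). KPB-Primary, KPB-1B and p53-2225L were the other models called higher, by 3.20, 2.86 and 2.66. T11-Apobec tumours had 2.17, 1.12, 4.41 and 1.70 and differed by -7.42 ± 0.83 (adjusted p = 4.22e-13). KPB25L tumours had 6.15, 3.00, 5.25, 4.87, 4.09 and 2.72 (-5.43 ± 0.73, adjusted p = 3.35e-10). C3-TAG, PyMT and ILC-Pik3Ca/Cdh1Null were not called.

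**Figure D2:**
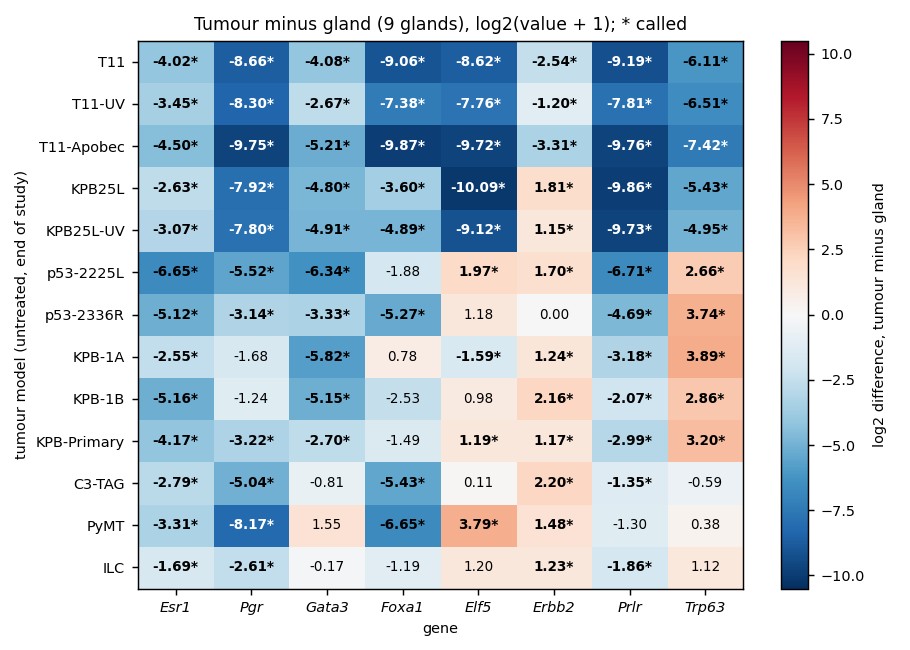
Difference of each gene between untreated end-stage tumours and glands, tumour minus gland in log2 units, for 13 models, with a star where limma called it. Esr1 was called lower in all 13 rows and Prlr in 12, while Erbb2 was called higher in 9 and Trp63 in 5.

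Counted by model, all 8 genes were called in T11, T11-UV and T11-Apobec, all of them lower, where 58.0, 57.9 and 59.7% of all genes were called. All 8 were also called in KPB25L and KPB25L-UV, 7 lower and Erbb2 higher, against 57.6 and 59.5% of all genes. There were 7 calls in p53-2225L (61.7% of all genes), 6 in p53-2336R (62.6%), 6 in KPB-1A (63.3%), 5 in KPB-1B (61.7%) and 7 in KPB-Primary (67.1%). C3-TAG had 5 (69.5%), PyMT 5 (51.2%) and ILC-Pik3Ca/Cdh1Null 4 (45.9%). In KPB-1B, C3-TAG, PyMT and ILC-Pik3Ca/Cdh1Null the share of members called was thus near that of all genes. BALB/c and FVB glands did not differ in any of the 8 by limma, with 0 also at an unadjusted p under 0.05, and 3.95% of all genes were called between them. BALB/c glands averaged 11.77 ± 1.02 for Esr1 and 13.68 ± 1.00 for Prlr (SD, n = 5), and FVB glands 12.33 ± 0.44 and 13.43 ± 0.68 (SD, n = 4).

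Other genes of the same programmes were read from lists of named genes, and the share of all genes called in each model is the background of each count. These shares were 20.8% higher and 37.2% lower in T11, 20.7% and 36.9% in KPB25L, 28% and 33.6% in p53-2225L, 37.4% and 29.7% in KPB-Primary, 37.3% and 32.2% in C3-TAG, 23.2% and 27.9% in PyMT and 20.2% and 25.7% in ILC-Pik3Ca/Cdh1Null. Of 17 tested genes of hormone-sensing luminal cells, 1 was higher and 12 were lower in T11, with a median difference of -3.60 against -0.31 over all genes tested. They included Prom1 at -6.11 ± 0.53, which marks hormone-sensing cells, Stc2, a secreted glycoprotein gene, at -5.04 ± 0.45 and Tph1, which starts serotonin synthesis, at -7.21 ± 0.84. In PyMT 5 were higher and 12 lower, led by Car12, a carbonic anhydrase gene, at 6.62 ± 0.48, Xbp1, a factor of secretory cells, at 2.34 ± 0.19 and Tbx3, a T-box factor, at -4.72 ± 0.51. The list in ILC-Pik3Ca/Cdh1Null had 2 higher and 5 lower, with a median of -0.80 against -0.09 over all genes.

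The 15 genes of alveolar and progenitor cells were mostly higher in PyMT and mostly lower in KPB25L and T11. In PyMT 12 were higher and none lower by limma, with a median of 3.76 against 0.00 over all genes, and the milk protein gene Wap was higher by 10.15 ± 0.95 (adjusted p = 2.58e-16). Lcn2, a secreted iron-binding protein gene, was higher by 6.71 ± 0.70 and Wfdc18 by 6.19 ± 0.78. In KPB25L none were higher and 12 were lower, with a median of -3.81 against -0.30, led by the casein gene Csn3 at -11.83 ± 1.02 (adjusted p = 2.9e-18), lactoferrin (Ltf) at -9.08 ± 0.97 and Wfdc18 at -6.64 ± 0.74. In T11 13 were lower, with the ETS factor genes Ehf at -7.89 ± 0.62 and Elf3 at -7.05 ± 0.66. In p53-2225L, where Elf5 was higher, 5 were higher and 4 lower, with Ehf at 3.10 ± 0.62 and the milk genes Lalba at -7.06 ± 1.02 and Csn3 at -6.21 ± 1.08.

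Of 6 tested genes of the prolactin pathway 6 were lower in T11 and in p53-2225L, 5 in KPB25L and C3-TAG and 4 in KPB-Primary, with none higher in these. Their medians were -2.66 in T11, -2.39 in p53-2225L, -1.93 in KPB25L, -1.28 in C3-TAG and -1.64 in KPB-Primary, where those of all genes were -0.31, -0.06, -0.30, 0.09 and 0.14. Stat5a was lower, at -3.70 ± 0.35 (adjusted p = 1.5e-16) in T11, and Ghr, the growth hormone receptor gene, which adipocytes also express, at -6.43 ± 0.41 (adjusted p = 5.12e-26) in p53-2225L. PyMT had 1 higher, the feedback inhibitor gene Socs2 at 1.27 ± 0.36, and 2 lower, with a median of -0.52 against 0.00, and the lower ones were Ghr at -3.69 ± 0.41 and Jak2 at -0.97 ± 0.20.

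Keratin and junction genes separated T11 from KPB25L. Of 12 tested, 11 were lower and none higher in T11, with a median of -6.30 against -0.31 over all genes, led by Grhl2 at -5.83 ± 0.47, a factor that maintains epithelium, Cdh1 at -6.00 ± 0.51 and the claudin gene Cldn3 at -8.28 ± 0.82. In KPB25L 8 were higher and 2 lower, with a median of 1.90 against -0.30, and the 2 lower ones were Krt19 at -8.47 ± 1.01 and the mucin gene Muc1 at -4.29 ± 0.66. Basal genes were 0 higher and 17 lower of 21 in T11, with a median of -3.10, and 13 higher and 5 lower in p53-2225L, where Trp63 was higher and their median was 2.06. In KPB-Primary 13 were higher and 7 lower, with the integrin gene Itgb4 at 3.28 ± 0.30, the desmosome gene Dsg3 at 7.21 ± 0.66 and the protein C receptor gene Procr, a marker of a basal subset, at -2.27 ± 0.21. In KPB25L 6 were higher and 9 lower, with the desmosome gene Dsc3 at -9.44 ± 0.80, the basal keratin gene Krt5 at -10.57 ± 0.95 and Col17a1 at -6.53 ± 0.71.

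Relatives of the 8 were also tested, and several of these counts lay near the shares of all genes given above. The median of the ErbB list was -1.78 in T11 and 1.31 in KPB-Primary, that of nuclear receptors and cofactors -1.20 in p53-2225L, and that of the FOXA, GATA, ETS and p53 relatives -1.31 in T11 and 1.55 in KPB-Primary. Of 11 ErbB genes and ligands 3 were higher and 7 lower in T11, with Erbb3, the partner of HER2, at -4.79 ± 0.42 (adjusted p = 5.06e-18), the ligand gene Tgfa at -3.10 ± 0.42 and the ligand gene Hbegf at 3.60 ± 0.43. In KPB-Primary 6 were higher and 4 lower, with Tgfa at 3.76 ± 0.30, Nrg1 at 3.97 ± 0.36 and Nrg2 at 4.11 ± 0.45, the last both neuregulins. Of 13 other nuclear receptors and cofactors 2 were higher and 10 lower in p53-2225L, among them the glucocorticoid receptor gene Nr3c1 at -2.60 ± 0.19 and the orphan receptor gene Esrrb at -6.08 ± 0.78. Of 11 relatives in the FOXA, GATA, ETS and p53 families 1 was higher and 6 were lower in T11, and 5 were higher and 5 lower in KPB-Primary, where Trp53 itself was at -2.20 ± 0.19 (adjusted p = 1.17e-18) and Foxa3 at 4.29 ± 0.48.

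Other cells moved with the same comparison. All 10 adipocyte markers and all 8 T cell markers were lower in each of the 7 models described here, and the adipocyte sum was 9.89 to 17.46 in the tumours of the 13 models and 17.58 to 21.07 in glands. The T cell sum was 7.92 to 13.06 in those tumours and 11.33 to 16.57 in glands. The summed signal of 7 epithelial markers was 9.54 to 13.66 in T11, T11-UV and T11-Apobec tumours and 14.32 to 16.52 in glands, with 7 of 7 lower in T11 and 4 higher and 2 lower in KPB25L. No adipocyte, T cell or epithelial marker was at 0 in a gland. The part of these cells in the differences was not tested. Centring each library on its median gave a median of all genes of 0.353 in T11, where it was -0.315 without centring, and moved it by over 0.1 in 12 of the 13 models. All 85 called pairs kept their direction, and Elf5 in KPB-1A, Erbb2 in T11-UV and Prlr in C3-TAG lost their call. Centring also called Gata3 higher in PyMT (1.93 ± 0.79, adjusted p = 0.0308), as did a pseudocount of 100 and 1 fit of all samples, and Elf5 higher in p53-2336R (1.60 ± 0.62, adjusted p = 0.0192). Prlr was lower in 9 models, not 12, in 1 fit of all samples or against FVB glands alone, and a pseudocount of 100 gave Pgr lower in 13 models and Foxa1 in 11. Elf5 was higher in 1 model and lower in 5 in 1 fit of all samples, and higher in 5 with a pseudocount of 10 or 100.

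Across the tumour models the 8 genes did not give 1 order. Mean levels ran from 5.40 in p53-2225L to 10.36 in ILC-Pik3Ca/Cdh1Null for Esr1, from 1.57 in T11-Apobec to 10.07 in KPB-1B for Pgr, and from 5.28 in p53-2225L to 13.17 in PyMT for Gata3. They ran from 1.49 in T11-Apobec to 12.14 in KPB-1A for Foxa1, from 3.69 in KPB25L to 12.25 in PyMT for Prlr and from 7.48 in T11-Apobec to 12.99 in C3-TAG for Erbb2. Elf5 ran from 0.81 ± 1.00 in KPB25L (SD, n = 6) to 14.69 ± 0.71 in PyMT (SD, n = 5), and Trp63 from 2.35 ± 1.44 in T11-Apobec (SD, n = 4) to 13.66 ± 0.34 in KPB-1A (SD, n = 5). Most neighbours in these orders of 17 models and 2 gland strains differed by less than the larger SD of the pair. Of 18 gaps, those above it numbered 4 for Esr1, Elf5 and Erbb2, 3 for Pgr and Gata3, 2 for Prlr and Trp63 and 1 for Foxa1. For Elf5 the widest stood between KPB25L-Apobec at 3 days, at 6.84 ± 2.36, and T11-UV at end stage, at 3.14 ± 2.32. For Trp63 they stood below p53-2225L at 12.43 ± 0.35 and below p53-2153F at 8.20 ± 0.85. For Erbb2 T11-UV, T11 and T11-Apobec, at 9.59 ± 0.38, 8.25 ± 0.35 and 7.48 ± 0.43, stood apart from the other models and from each other.

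The 9 models with 1 library each spanned much of the same range, with no replicate behind any value. p53-T1 had 10.22 for Esr1, 12.85 for Elf5 and 12.89 for Trp63, and p53-T2 had 10.30 for Pgr beside 6.24 for Esr1. p53-T6 and p53-T7 had Elf5 at 13.14 and 13.49 with Trp63 at 6.98 and 8.32, lower Trp63 than in the other models with Elf5 above 12. T12, p53-T12, p53-2151 and p53-2245 had Elf5 at 0.85 to 2.79 and Trp63 at 1.68 to 2.42, close to the T11 models, with Gata3 at 9.74 to 10.96. p53-2224 had Elf5 at 12.71 and Trp63 at 12.46.

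Correlations were taken over the 17 models, each as the mean of all its untreated tumours at any time. As a description of models that share parental lines, Elf5 went with Prlr (Pearson r = 0.89) and with Trp63 (r = 0.89). Pgr went with Trp63 (r = 0.86) and Foxa1 (r = 0.83). The oestrogen receptor gene followed none of the others closely, with r from -0.34 with Trp63 to 0.46 with Gata3, and r was -0.09 with Pgr, its target. The genes most like each member over the same 17 means, among 16056 genes, differed from member to member. For Elf5 they were Ttpa (r = 0.981), Dsg2 (0.965) and Sox10 (0.962), and for Trp63 they were Col9a3 (0.974), the basal keratin gene Krt5 (0.973) and Apoc1 (0.968). For Erbb2 they were Crb3, Cblc and Ano9 (each 0.956), and for Prlr Ttc22 (0.944), Slc1a1 (0.942) and Tmprss13 (0.937). For Pgr they were Glb1l2 (0.939), Crispld1 (0.927) and Moxd1 (0.912), and for Foxa1 Rasl11a (0.927), Upk1b (0.914) and Clec11a (0.907). Gata3 and Esr1 had looser partners, Kcnh7 (0.902), Ltbp2 (0.883) and Tfap2b (0.863) for Gata3 and Steap3 (0.879), Epsti1 (0.872) and B3gnt3 (0.866) for Esr1.

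**Figure D3:**
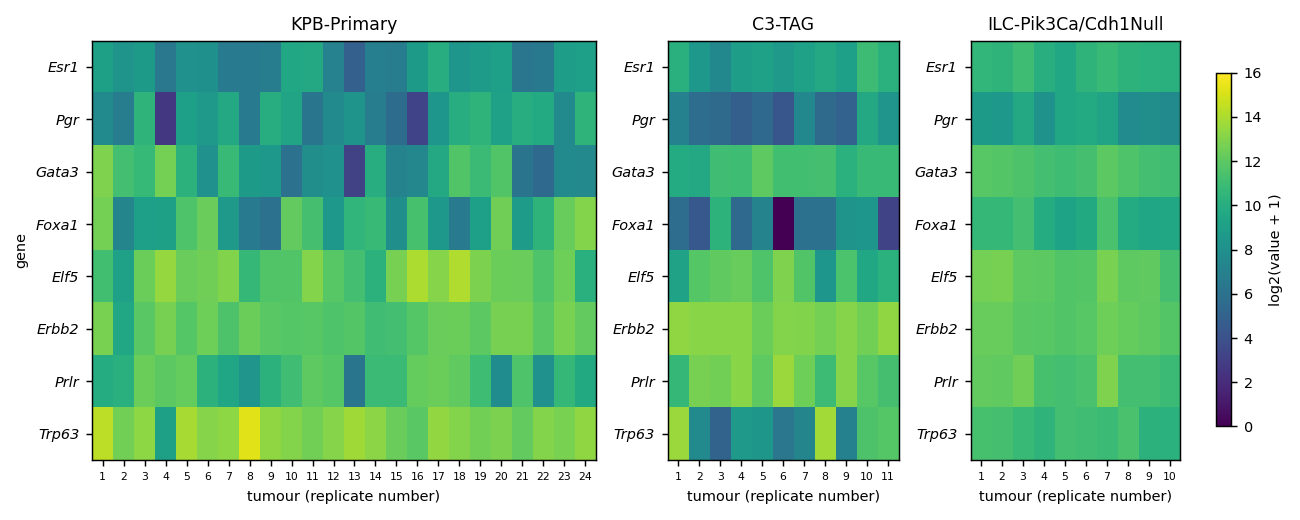
Level of each gene, as log2(value + 1), in each of 24 KPB-Primary, 11 C3-TAG and 10 ILC-Pik3Ca/Cdh1Null tumours, 1 column per tumour. Gata3 ran from 3.08 to 12.93 among KPB-Primary tumours and from 11.02 to 11.96 among ILC-Pik3Ca/Cdh1Null tumours.

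Tumours of 1 model differed widely in some genes. The lowest, median and highest Gata3 level in 24 KPB-Primary tumours were 3.08, 8.62 and 12.93, in 11 C3-TAG tumours 9.67, 11.03 and 12.03 and in 10 ILC-Pik3Ca/Cdh1Null tumours 11.02, 11.43 and 11.96. Pgr was 2.62, 8.54 and 10.42 in KPB-Primary and Foxa1 6.03, 9.75 and 13.06, while Elf5 was 9.14, 12.38 and 14.11 and Trp63 9.09, 13.07 and 15.28. KPB-Primary replicate 13 had the lowest Gata3 and the lowest Esr1 (4.88). Replicate 4 had the lowest Pgr (2.62) and the lowest Trp63 (9.09) beside Gata3 at 12.67 and Elf5 at 13.47. In C3-TAG the spread lay in Trp63, with 5.12, 8.46 and 13.76, and in Foxa1, with 0.00, 6.05 and 10.37. C3-TAG replicates 1, 8, 10 and 11 had Trp63 at 13.59, 13.76, 11.51 and 11.76 and Elf5 at 9.24, 8.42, 9.50 and 10.20, below the C3-TAG median of 11.57.

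Whether the genes vary together from tumour to tumour was tested in KPB-Primary, the largest group. None of the 28 pairs passed a permutation test of Pearson r with Benjamini-Hochberg adjustment, and 5 had an unadjusted p under 0.05, or 3 by Spearman's rho. Elf5 and Prlr, which went together over the models, gave r = 0.47 here, and Elf5 and Trp63 gave r = -0.43, the other sign from that over models. No pair passed after leaving out the 2 tumours farthest from the median or within the flow cell that holds 14 of the tumours.

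T11 and KPB25L, the parental lines of the sensitive derivatives, were set against each other untreated at 3 days. Erbb2 had 8.95, 8.73, 8.77 and 9.06 in T11 tumours, against 12.26, 12.15, 12.47, 12.57 and 12.34 in KPB25L tumours, and the groups did not overlap (-3.48 ± 0.42, adjusted p = 7.31e-12 by limma over 20848 genes). Foxa1 had 1.01, 0, 5.50 and 0.88 in T11 tumours, against 8.81, 6.55, 7.41, 7.13 and 7.23 in KPB25L tumours, again with no overlap (-5.58 ± 1.37, adjusted p = 0.00051). These were the 2 of the 8 genes called, both lower in T11, where 20.4% of all genes were called lower. Gata3 had 8.34, 7.60, 8.60 and 8.48 in T11 tumours and 6.61, 6.22, 6.12, 6.67 and 7.51 in KPB25L tumours, without overlap, and was not called (1.63 ± 0.67, adjusted p = 0.0502), though it was after centring each library on its median (adjusted p = 0.0159). Elf5, Prlr, Pgr and Trp63 were low in both lines and were not called. Of 12 keratin and junction genes 1 was higher and 10 were lower in T11, led by Cdh1 at -7.71 ± 0.65, Grhl2 at -7.46 ± 0.84 and Epcam at -8.50 ± 1.01. Erbb3 was lower, at -3.45 ± 0.50 (adjusted p = 4.69e-09) as was Grb7, the neighbour of Erbb2, at -9.12 ± 1.02 (adjusted p = 1.63e-13). With a flow cell term in the fit none of the 8 was called, where 402 of all genes were. Without the KPB25L-UV libraries that hold T11 transcripts Gata3 was also called (adjusted p = 0.046).

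The 6 cultured lines gave the same 2 genes apart, by value and without replicates. Their table was scaled separately, so only lines within it are compared. Erbb2 was 8.46, 9.33 and 8.69 in the lines T-11-CellLine-VALIDATION, T11_EF1A_APOBEC_CELL_LINE and T11_V5_CELL_LINE, against 11.26, 10.73 and 10.66 in KPB-25L-CellLine-VALIDATION, KPB_25L_V1_5_CELL_LINE and KPB_EF1A_APOBEC_CELL_LINE. Foxa1 was 0.67, 0.96 and 0.46 in those T11 lines and 6.13, 6.79 and 5.87 in those KPB lines. Gata3 was 8.22, 7.92 and 9.20 in the T11 lines and 4.97, 2.80 and 4.42 in the KPB lines. Pgr was listed at 0 in all 6 lines, and Elf5, Prlr and Trp63 were at 0 to 2.05. Esr1 was 7.12 to 7.94 in the T11 lines and 6.90 to 8.25 in the KPB lines, so Esr1 was detected in all 6 cultures.

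Untreated derivatives were compared with their parental line in 10 contrasts, and 11 of 80 gene-by-contrast pairs were called by limma, 9 higher and 2 lower, where 5.81% of all pairs were. Of the 9, all stood in KPB25L derivatives at 3 days. KPB25L-UV was higher than KPB25L in Elf5, Esr1, Gata3, Pgr and Prlr, where 8.52% of all genes were called higher. Elf5 had 7.05, 2.39, 7.90 and 1.02 in KPB25L-UV tumours, against 0, 0, 0, 0 and 1.12 in KPB25L tumours (4.37 ± 1.38, adjusted p = 0.0249). Pgr had 7.73, 7.66, 5.09 and 6.38 in KPB25L-UV tumours, against 3.16, 1.89, 2.74, 4.42 and 4.02 in KPB25L tumours (3.47 ± 1.12, adjusted p = 0.0288). The Pgr groups did not overlap and the Elf5 groups did, at KPB25L-UV replicate 4. Prlr was higher by 4.22 ± 1.45 (adjusted p = 0.0394), Gata3 by 1.94 ± 0.67 (adjusted p = 0.0414) and Esr1 by 1.33 ± 0.44 (adjusted p = 0.0336).

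KPB25L-Apobec was higher than KPB25L in Elf5, Gata3, Prlr and Trp63, where 2.85% of all genes were called higher. Elf5 had 9.38, 4.76, 9.43, 5.13 and 5.51 in KPB25L-Apobec tumours, all above every KPB25L tumour (6.62 ± 1.30, adjusted p = 0.000721). Prlr had 10.16, 4.84, 8.86, 5.76 and 6.61 in KPB25L-Apobec tumours, against 1.22, 3.47, 1.54, 3.84 and 3.91 in KPB25L tumours, also without overlap (4.45 ± 1.36, adjusted p = 0.0408). Gata3 was higher by 2.06 ± 0.63 (adjusted p = 0.0413) and Trp63 by 2.52 ± 0.79 (adjusted p = 0.0476), while Pgr was at 3.26 ± 1.06 (adjusted p = 0.0559) without a call, though it was called without the KPB25L-UV libraries that hold T11 transcripts (adjusted p = 0.039). Milk genes rose with them, with Csn1s1 at 9.43 ± 1.23 (adjusted p = 2.4e-08), Csn3 at 9.92 ± 1.48 and Csn2 at 9.29 ± 1.42, in a list with 6 of 14 alveolar genes higher and none lower.

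Adipocyte markers moved with these calls. All 10 were higher in KPB25L-UV and in KPB25L-Apobec, with medians of 5.58 and 5.97, where those of all genes were 0.05 and 0.00. The adipocyte sum was 15.70, 15.24, 16.66 and 12.25 in KPB25L-UV tumours and 18.39, 13.84, 16.21, 12.50 and 14.27 in KPB25L-Apobec tumours, against 10.24, 11.56, 11.12, 11.65 and 11.56 in KPB25L tumours. No adipocyte marker was at 0 in the derivatives, and 2 were in KPB25L replicate 3. Their part in the rise of Elf5 and Prlr was not tested. Without KPB25L-UV replicate 3, which holds T11 transcripts, Elf5 in KPB25L-UV was at 3.27 (adjusted p = 0.157), Prlr at 3.48 (adjusted p = 0.153) and Gata3 at 1.55 (adjusted p = 0.174), all without a call. Of the 9 higher calls, each other than that of Elf5 in KPB25L-Apobec was also lost on leaving out 1 library, such as Gata3, Prlr and Trp63 in KPB25L-Apobec without KPB25L-Apobec replicate 1 (adjusted p = 0.156, 0.149 and 0.156), and Pgr and Esr1 in KPB25L-UV without KPB25L-UV replicate 2 (adjusted p = 0.15 and 0.186). With a flow cell term none of the 9 was called, where 26 of all genes were in KPB25L-UV and 79 in KPB25L-Apobec.

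The 2 lower calls came at 7 days. Gata3 had 6.69, 6.12, 5.94 and 5.84 in T11-Apobec tumours, against 8.95, 8.82, 9.16 and 9.21 in T11 tumours, with no overlap (-2.89 ± 0.71, adjusted p = 0.0041 by limma), where 2.84% of all genes were called lower. All 8 libraries lay on 1 flow cell. Without the KPB25L-UV libraries that hold T11 transcripts Erbb2 was also called there (-1.21, adjusted p = 7e-04), as it was in T11-UV against T11 at end stage (1.34, adjusted p = 3.41e-04). Erbb2 had 12.18, 12.32, 7.49 and 8.65 in KPB25L-UV tumours, against 12.30 to 12.53 in KPB25L tumours (-2.25 ± 0.48, adjusted p = 0.00116), where 5.53% of all genes were called lower. KPB25L-UV replicates 3 and 4, the low ones, hold T11 transcripts, and without the libraries that do the difference was -0.15 (adjusted p = 0.916). Only KPB25L-UV replicates 1 and 2 were left in that fit. In it Elf5 was called higher, at 7.44 ± 1.73 (adjusted p = 0.0194), where all libraries gave 3.24 ± 1.57 (adjusted p = 0.172). KPB25L-UV and KPB25L tumours at 7 days shared no flow cell, so a flow cell term could not be fitted for either gene. T11 tumours at 7 days had Erbb2 at 9.14 to 9.49.

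Growth without treatment, end stage against 3 days, was tested in 7 models. It gave 3 calls of 56, where 3.18% of all gene-by-contrast pairs were called, and all 3 were lower in KPB25L-UV, where 13.3% of all genes were lower. Pgr had 4.88, 4.76, 3.73, 3.33, 0 and 4.39 in KPB25L-UV tumours at end stage, against 7.73, 7.66, 5.09 and 6.38 at 3 days, with no overlap (-3.20 ± 1.08, adjusted p = 0.0286 by limma). Gata3 had 7.59, 6.62, 6.47, 6.17, 7.30 and 6.16 at end stage and 8.81, 7.86, 9.76 and 7.85 at 3 days, also without overlap (-1.85 ± 0.65, adjusted p = 0.0356). Esr1 was at -1.38 ± 0.43 (adjusted p = 0.0157) with groups that overlapped. The marker lists fell too, with 6 of 10 adipocyte and 8 of 8 T cell genes lower. The adipocyte sum was 10.04 to 12.68 at end stage and 12.25 to 16.66 at 3 days, the T cell sum 8.58 to 10.29 and 11.16 to 13.34, and their part was not tested. Each call was lost without 3-day replicate 1 or 2, with adjusted p of 0.0963 and 0.136 for Pgr, 0.0851 and 0.0617 for Gata3 and 0.0589 and 0.108 for Esr1. Gata3 was also lost without 3-day replicate 3 (0.168). Without the libraries that hold T11 transcripts, 1 at each time, Pgr was at -3.99 (adjusted p = 0.0122) and Esr1 at -1.47 (0.0216), and Gata3 was at -1.43 without a call (0.179). Erbb2 was then called higher at end stage, at 0.75 (0.0492), where all libraries gave 0.16 ± 0.41 (adjusted p = 0.84), and lower in T11-Apobec, at -0.98 (0.0225). End-stage and 3-day tumours of KPB25L-UV shared no flow cell, and with a flow cell term none of the 3 was called, where 381 of all genes were.

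Therapy was tested in 7 models at up to 3 times, 19 contrasts in all. Limma called 5 of 152 gene-by-contrast pairs, all higher in treated tumours, where 4.90% of all pairs were called, and 12 of the 152 had an unadjusted p under 0.05. Of the 5, 4 stood in KPB25L at 3 days, namely Elf5, Prlr, Gata3 and Trp63, where 8.88% of all genes were called higher. Elf5 had 1.46, 10.63, 1.08, 9.20 and 7.95 in treated tumours, against 0, 0, 0, 0 and 1.12 in untreated tumours (5.84 ± 1.30, adjusted p = 0.00164). Prlr had 3.00, 10.55, 1.08, 10.16 and 8.31 in treated tumours, against 1.22, 3.47, 1.54, 3.84 and 3.91 in untreated tumours (3.83 ± 1.36, adjusted p = 0.0427). The treated group was split, with replicates 2, 4 and 5 high in both genes and replicates 1 and 3 within or near the untreated range.

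Gata3 showed the same split, with 6.71, 10.76, 6.88, 10.64 and 9.54 in treated tumours, against 6.61, 6.22, 6.12, 6.67 and 7.51 in untreated tumours (2.28 ± 0.63, adjusted p = 0.00974 by limma). Trp63 was 6.10, 8.68, 5.78, 7.34 and 6.93 in treated tumours, against 1.22, 4.36, 3.84, 4.23 and 5.54 in untreated tumours, the 1 gene of the 4 whose groups did not overlap (3.13 ± 0.79, adjusted p = 0.0049). Pgr was 3.53, 8.78, 2.95, 8.29 and 6.95 in treated tumours and missed the threshold (2.85 ± 1.06, adjusted p = 0.0523). Erbb2 was 12.57, 11.31, 12.20, 10.85 and 10.90 in treated tumours, lowest in the same 3 replicates, and was not called (-0.79 ± 0.40, adjusted p = 0.161), nor were Esr1 and Foxa1. Without the KPB25L-UV libraries that hold T11 transcripts, which enter this comparison only through the shared estimate of the spread, both Pgr (adjusted p = 0.0386) and Erbb2 (adjusted p = 0.0134) were called.

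**Figure D4:**
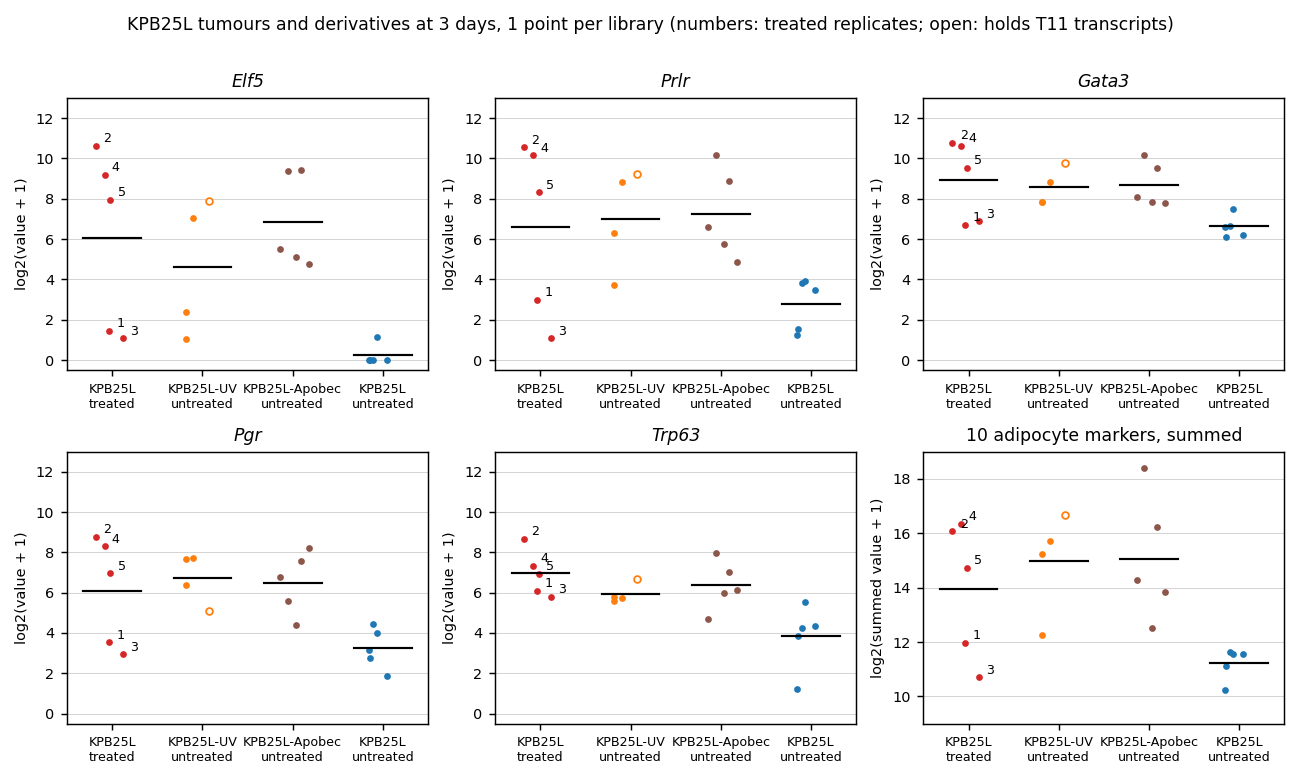
Levels of Elf5, Prlr, Gata3, Pgr and Trp63 and the summed signal of 10 adipocyte markers, all as log2(value + 1), in KPB25L tumours under therapy and in untreated KPB25L-UV, KPB25L-Apobec and KPB25L tumours at 3 days, 1 point per library with a line at the mean. The open point holds T11 transcripts. Untreated KPB25L tumours stayed at or below 1.12 in Elf5, and the tumours with high Elf5 also had high adipocyte sums.

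Adipocyte markers split the treated KPB25L tumours in the same way. Their sum was 11.97, 16.07, 10.71, 16.35 and 14.73 in treated replicates 1 to 5, against 10.24 to 11.65 in untreated tumours, and 3 of 10 were called higher with a median of 4.00, where that of all genes was 0.00. At most 2 of the 10 were at 0 in any of these tumours. The T cell sum was 9.51, 12.89, 10.31, 13.24 and 12.89 in treated tumours, against 9.48 to 11.60 in untreated tumours, with 4 of 8 markers higher. The epithelial sum was 17.35, 15.79, 17.25, 15.76 and 15.08 in treated tumours and 16.98 to 17.35 in untreated tumours, so replicates 2, 4 and 5 had less epithelial signal and more adipocyte and T cell signal. The part of those cells in the calls was not tested. Alveolar genes were higher in 8 of 14 and lower in none, with Csn3 at 7.88 ± 1.48 (adjusted p = 0.000391), Csn2 at 6.65 ± 1.42 and Csn1s1 at 5.17 ± 1.23. Hormone-sensing genes were higher in 8 of 17, with Xbp1 at 0.82 ± 0.15, Cited1, a cofactor of the oestrogen receptor, at 4.14 ± 0.97 and Myb at 1.75 ± 0.43. In the prolactin pathway 4 of 6 were higher, with the Stat5 target Cish at 2.11 ± 0.35 (adjusted p = 3.98e-05), Jak2 at 0.94 ± 0.26 and Stat5a at 1.02 ± 0.30.

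Elf5 kept its call there on leaving out any 1 library. Gata3 lost it without treated replicate 2 (adjusted p = 0.0927), 4 (0.119) or 5 (0.0637), Trp63 without treated replicate 4 (0.0572), and Prlr without any of these 3 (0.236, 0.252 and 0.15) or any of untreated replicates 1 to 4 (0.115, 0.0562, 0.101 and 0.0555). With a flow cell term none of the 4 was called, where 0 of all genes were. Elf5 was then at 3.26 ± 1.70, Prlr at 1.59 ± 1.81, Gata3 at 1.14 ± 0.74 and Trp63 at 2.05 ± 1.04. Within the flow cells that held both arms, Elf5 was 1.46 in treated and 0 and 0 in untreated tumours on the first, and 10.63 and 1.08 in treated and 1.12 in untreated tumours on the other. At 7 days Elf5 was 0, 0, 0 and 1.41 in treated KPB25L tumours and 0, 2.04, 0 and 1.54 in untreated libraries, of which 2 are of 1 mouse, and at end stage it was listed at 0 in all 3 treated tumours. The adipocyte sums of the treated tumours at those times were 10.98 to 13.85.

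The fifth call was Gata3 in T11-Apobec at 7 days. It had 8.73, 8.10, 7.75 and 7.95 in treated tumours, against 6.69, 6.12, 5.94 and 5.84 in untreated tumours, with no overlap (1.98 ± 0.71, adjusted p = 0.0254 by limma), where 13.6% of all genes were called higher. All 8 libraries lay on 1 flow cell. The call was lost without treated replicate 1 (adjusted p = 0.108), untreated replicate 3 (0.0555) or untreated replicate 4 (0.058). T cells express Gata3 as well, and 7 of 8 T cell markers were higher, with a sum of 13.51, 13.75, 13.07 and 13.17 in treated tumours, against 11.19, 10.65, 10.70 and 10.48 in untreated tumours. None of the 8 markers was at 0 in these tumours, and their part in the Gata3 call was not tested. Adipocyte markers were not called there. Among related genes Trp73, the p73 gene, was higher by 3.30 ± 0.73 (adjusted p = 0.000296) and Cish by 1.74 ± 0.39.

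**Figure D5:**
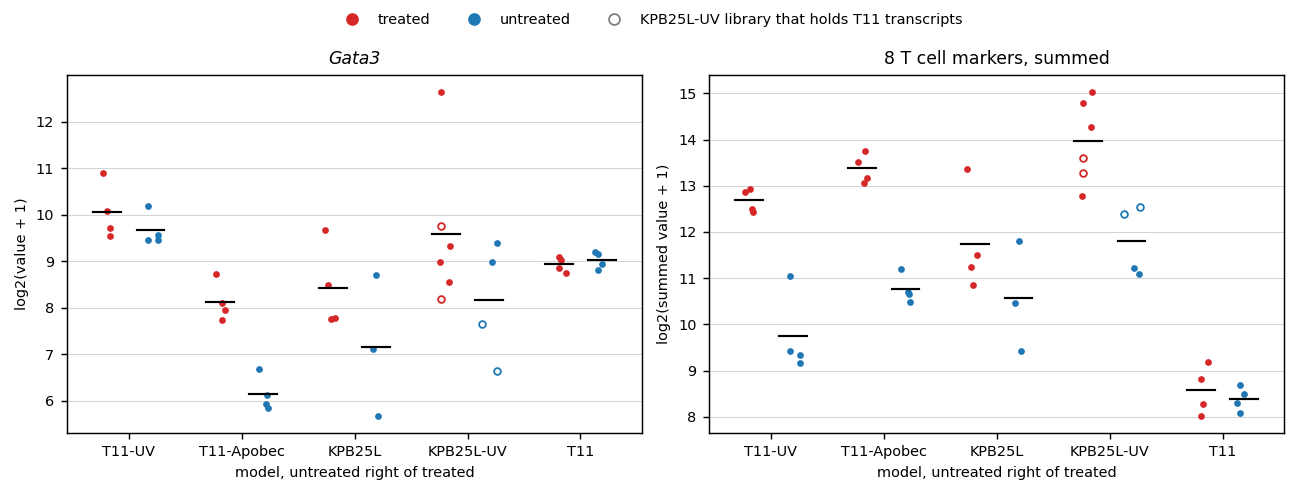
Gata3 level and summed signal of 8 T cell markers, as log2(value + 1), at 7 days in treated and untreated tumours of T11-UV, T11-Apobec, KPB25L, KPB25L-UV and T11, 1 point per tumour with a line at the mean and open points for KPB25L-UV libraries that hold T11 transcripts. In T11-Apobec treated tumours sat at 7.75 to 8.73 for Gata3, above all untreated ones at 5.84 to 6.69, and their T cell sums were also apart.

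Pooled over the sensitive models with equal weight, therapy called 1 of the 8 genes at 3 days and 1 at 7 days. At 3 days it was Elf5 (2.93 ± 0.74, adjusted p = 0.00843 by limma), where 6.93% of all genes were called higher, with differences of 3.21 in T11-UV, 0.41 in T11-Apobec, 5.84 in KPB25L and 2.27 in KPB25L-UV. Treated T11-UV tumours had 4.11, 3.82 and 3.39, against 2.25, 0, 0 and 0 in untreated ones, without overlap and without a call (3.21 ± 1.57, adjusted p = 0.152). At 7 days it was Gata3 (1.26 ± 0.35, adjusted p = 0.00297), where 15.5% of all genes were called higher, with differences of 0.38, 1.98, 1.27 and 1.41 in the same 4 models. All 8 T cell markers were higher in that comparison. In 3 of the 4 models both arms at 7 days lay on 1 flow cell, where a flow cell term cannot move the difference. With that term Gata3 kept its call (1.26 ± 0.46, adjusted p = 0.0258) and Elf5 at 3 days did not (2.64 ± 0.89, adjusted p = 0.0615). Without the KPB25L-UV libraries that hold T11 transcripts Gata3 and Trp63 were also called at 3 days, at 1.02 (adjusted p = 0.0349) and 1.26 (adjusted p = 0.0179), while at 7 days Gata3 was at 1.08 ± 0.38 (adjusted p = 0.0186), and Erbb2 was called lower at -0.49 ± 0.14 (adjusted p = 0.00495). At end stage none of the 8 was called, nor at an unadjusted p under 0.05, where 0.0288% of all genes were.

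In the resistant models 0 of the 8 were called at 3 days, 7 days or end stage, with 1 at an unadjusted p under 0.05, and 0% of all genes were called. At 7 days T11 was the only resistant model with both arms. The difference between sensitive and resistant models was tested directly and called none of the 8 at any time, with 1 at an unadjusted p under 0.05 and 0.00160% of all gene-by-time pairs called. For Elf5 at 3 days that difference was 3.37 ± 1.11 (adjusted p = 0.571 by limma). For Gata3 at 7 days, against T11 alone, it was 1.36 ± 0.79 (adjusted p = 0.615). The calls in sensitive models were thus not shown to differ from resistant ones. In T11 at 7 days treated tumours had Gata3 at 9.03, 9.09, 8.86 and 8.76 and untreated ones at 8.95, 8.82, 9.16 and 9.21.

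Untreated sensitive and resistant models at 3 days were compared with models as replicates, 5 against 7, to ask whether receptor or lineage levels go with response. None of the 8 was called, and 0% of all 17920 genes were called. An unadjusted p under 0.05 was found for 5 of the 8 and for 3758 of the 17920 genes. The difference, sensitive minus resistant, was -6.20 ± 1.48 for Trp63 (adjusted p = 0.0567), and Elf5 stood at -6.49 ± 1.76 (adjusted p = 0.0672), Pgr at -2.79 ± 1.23 (adjusted p = 0.212), Prlr at -2.74 ± 1.12 (adjusted p = 0.18) and Esr1 at 1.57 ± 0.60 (adjusted p = 0.153). The 5 sensitive models are KPB25L, KPB25L-UV, KPB25L-Apobec, T11-UV and T11-Apobec, so they stand for 2 parental lines. T11 itself is classed resistant and had low Elf5 and Trp63 like its sensitive derivatives. Fits that left out 1 model, 12 in all, called 0 to 4 of the 8. Without T11, limma called Trp63 at -7.33 (adjusted p = 7.25e-04), Elf5 at -7.82 (0.00146), Prlr at -3.47 (0.0213) and Pgr at -3.50 (0.0465). That fit drops the resistant parent of 2 sensitive models and still counts derivatives of 1 line as independent. It thus cannot decide whether these levels go with response. The share of all genes called in it is not given here.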

How the data were processed

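RNA-seq of 264 mouse tumours and mammary glands and of 6 cultured lines was analysed, 1 table each. The deposited values are a signal per gene that the authors scaled to the upper quartile, per the file headers. The upper quartile of values above 0 had a median of 2045.9 over tumour and gland libraries and of 998.7 over cultured lines. STAR, Salmon, SAMtools, Picard and the build mm10 are named in the submitters' processing notes, without their settings. Of 45724 entries, 39 named as dates and 28 of repeated symbols were left out (0.21% to 0.457% of the signal), and 1 unnamed column was not used. Whole reads could be recovered for 72.1% to 88.2% of values within 0.01 of a read, too few for a count test, so depths are estimates and cover counting error only.

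Values were taken as log2(value + 1), which understates changes of low genes. Genes above 0 in at least 4 samples and in the upper 66.7% by mean were fitted in limma 3.58.1 (R 4.3.3) with 1 mean per group and an intensity trend, and p-values were Benjamini-Hochberg adjusted over all genes tested, with a call at 0.05. All 8 members passed this filter. The gland fit held 21366 genes and 106 samples, and the fit of therapy, time and derivatives 20848 genes and 192 samples, with both libraries of 1 mouse averaged. Errors of differences are standard errors. The scripts were tested on simulated data. The labels name an animal for only some libraries, so p-values measure the spread between samples. ILC-Pik3Ca/Cdh1Null replicates 9 and 10 share an animal number and were kept as 2 samples, and averaging them changed no call. Pairs in KPB-Primary were tested with 100000 permutations, two-sided, in Python 3.11.15. The text names all 8 members, up to 3 called genes with the smallest adjusted p per list and contrast, and the 3 genes most correlated with each member. A gene that this rule names is not reported here. The members and lists were chosen with earlier results of these data known. Alternatives were pseudocounts of 10 and 100, no filter, median centring, 1 fit of all samples, a flow cell term, 1 gland strain, and leaving out libraries.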

Additional observations from a re-analysis of the deposited data

Results flagged for a closer look

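In groups of 4 to 10 samples, 29 of 336 sets of 1 gene in 1 group held a tumour or gland whose gap to the nearest other exceeded Dixon's 95% limit, and chance flags about 1 in 20. No cause was tested, and all values are log2(value + 1).

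Some of these samples also stood apart in other ways. KPB25L-UV untreated replicate 2 at end stage, which holds T11 transcripts, had Foxa1 at 0.0 (others 6.43 to 8.92) and Erbb2 at 8.76 (12.22 to 12.87). BALB/c gland replicate 1 had Elf5 at 9.59 (10.92 to 11.29) and Erbb2 at 9.68 (11 to 11.29). KPB25L-UV treated replicate 2 at 7 days had Gata3 at 12.65 (8.20 to 9.75) beside an adipocyte sum of 20.22. KPB25L treated replicate 2 at 3 days, 1 of the 3 with high Elf5, had Esr1 at 11.22 (8.92 to 9.58).

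Elf5 was alone above 0 in KPB25L-UV treated replicate 3 at end stage (3.60), KPB25L untreated replicate 5 at 3 days (1.12), KPB25L treated replicate 4 at 7 days (1.41) and T11-UV untreated replicate 1 at 3 days (2.25). Foxa1 was alone above 0 in T11-Apobec untreated replicate 4 at 7 days (2.73). It was high at end stage in T11-Apobec untreated replicate 4 (5.21, others 0 to 0.77) and T11 treated replicate 5 (5.42, others 0 to 0.82). Foxa1 was listed at 0 (0.0) in T11-UV at end stage in treated replicate 5 (others 2.82 to 3.93) and untreated replicate 1 (4.95 to 5.95). Pgr was listed at 0 (0.0) at end stage in KPB25L-UV untreated replicate 5 (3.33 to 4.88) and T11-UV treated replicate 5 (1.86 to 2.40), and was 5.24 in p53-2224L untreated replicate 3 at 3 days (7.36 to 7.45).

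Prlr was 6.40 in T11-Apobec untreated replicate 4 at end stage (2.72 to 3.29), 1.38 in T11-UV untreated replicate 4 at 3 days (4.09 to 4.57), 2.23 in T11-UV untreated replicate 1 at end stage (6.57 to 7.24) and 9.10 in p53-2224L untreated replicate 3 at 3 days (10.25 to 10.46). Erbb2 was 11.57 in KPB-1A untreated replicate 1 at end stage (12.11 to 12.18), 12.16 in KPB25L-UV untreated replicate 4 at 3 days (11.62 to 11.69), 11.68 in KPB25L treated replicate 4 at 7 days (12.27 to 12.35) and 9.14 in T11-UV untreated replicate 2 at 3 days (9.49 to 9.54). Trp63 was 8.77 in PyMT replicate 4 (10.36 to 10.75) and 1.06 in T11 treated replicate 2 at end stage (4.29 to 5.48), and Gata3 was 10.2 in T11-UV untreated replicate 1 at 7 days (9.47 to 9.56).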

How the results depend on the processing

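Of 108 called gene-by-contrast results, 20 lost their call without 1 library. Counts of called members ranged over the fits that left out 1 library or model from 83 to 86 against glands, 2 to 9 under therapy by model, 1 to 3 in sensitive models at 3 days and 1 to 1 at 7 days, 0 to 5 over time, 2 to 3 between T11 and KPB25L, 3 to 13 in derivatives and 0 to 4 between classes. Without the KPB25L-UV libraries that hold T11 transcripts, 8 members were called under therapy by model, 3 in sensitive models at 3 days and 2 at 7 days, and Erbb2 under therapy in KPB25L-UV at 7 days reversed to -1.1 (adjusted p = 0.0107 by limma), where all libraries gave 0.43. With a flow cell term the counts were 1 by model, 0 in sensitive models at 3 days, 0 over time, 0 between T11 and KPB25L and 1 in derivatives, and 19 of 22 called results lost their call. The term could not be fitted for therapy in T11-Apobec and KPB25L-UV at end stage or for growth in T11-Apobec. Nor could it for T11-UV and KPB25L-UV at 7 days and T11-Apobec at end stage, each against its parental line. The comparison with glands was not run with that term. Sensitive models at 3 days gave 2 with a pseudocount of 10 or 100 and 3 after centring. Derivatives gave 5 with a pseudocount of 100, 6 with no filter and 7 in 1 fit of all samples, where time gave 1. The cause of these shifts was not tested. The shares of all genes called in these fits are not given beside the counts, so a shift cannot be read as one of the members alone. No paired analysis was possible because replicates were numbered in accession order and the labels pair no samples within a comparison. In 4 cases an animal number stands in both treated KPB25L-UV at end stage and treated T11-UV at 7 days, which were not compared. Values near 1 rest on single reads, which limits Elf5, Prlr and Pgr in T11 and KPB25L tumours and Foxa1 in T11 tumours.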

Other observations

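Treated p53-2336R tumours at end stage differed from each other in most of the hormone-sensing genes. Replicates 1 to 5 had Esr1 at 10.12, 5.44, 7.46, 5.36 and 9.99, Pgr at 12.40, 7.78, 6.36, 6.39 and 11.85, Gata3 at 11.56, 7.48, 7.28, 6.80 and 11.71, Foxa1 at 11.06, 6.35, 6.80, 5.81 and 11.46 and Prlr at 12.84, 8.18, 8.26, 8.61 and 12.37. Replicates 1 and 5 were the highest in each. In untreated p53-2336R tumours at end stage Esr1 was 5.87 to 8.13 and Pgr 6.88 to 9.62. Untreated KPB-1A tumours at end stage had Gata3 at 5.26, 10.11, 7.44, 3.33 and 2.90 and Elf5 at 7.02, 12.20, 9.48, 8.99 and 8.84, with replicate 2 highest in both.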
